A study of Arabidopsis thaliana with 6 samples.

Results

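The AMT ammonium transporters of Arabidopsis thaliana are a family of 6 genes, numbered AMT1;1 to AMT1;5 in one group and AMT2;1 in another. They were chosen by identifier, and all 6 were found among the 38150 genes measured. The expression study compared the Col-0 wild type (WT) with the nid1 knockout mutant, using 3 RNA sequencing libraries of each. All plants were 9-day-old seedlings, labelled as whole plants. They were raised with 20 mM nitrate, moved to nitrate-deficient medium and then supplied with 0.05 mM nitrate for 6 h, so every library comes from low nitrate and no group without that treatment was measured. The labels name neither the locus removed in nid1 nor the allele or the number of lines, and loss of its transcript was not checked. Nothing in the labels says that replicates were separate cultures, so the p-values below measure a spread that may be technical.

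AMT proteins carry ammonium across membranes. In roots AMT1;1, AMT1;3 and AMT1;5 are known from the outer cell layers, AMT1;2 from the endodermis and cortex, and AMT2;1 from inner tissues that load ammonium for transport to the shoot. AMT1;4 is known from pollen. Nitrogen shortage is known to raise the transcripts of the root surface members, while ammonium supply is known to shut the proteins off through phosphorylation.

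Levels are in FPKM, the authors' deposited unit, which divides the fragments of a gene by its length and by the size of the library, so levels of different genes can be compared per length. Summed FPKM was 964273 in WT replicate 2 and lay between 730062 and 804310 in the remaining libraries. WT replicate 2 stood apart from the other 5 libraries on a first principal component with 38.3% of the variance, and results are therefore also given without it. Markers of root and of shoot were detected, but the share of each in the sampled tissue was not measured. All 6 root surface markers, all 8 endodermis markers and all 8 shoot markers were above 0 in each library. Of 6 pollen markers, 4 were listed at 0 in all 6 libraries and none exceeded 0.665 FPKM. In WT the summed shoot markers, at 227 to 262 FPKM, lay below the summed endodermis markers, at 340 to 442 FPKM. RBCS1A, a Rubisco small subunit gene known for very abundant transcripts in green leaves, averaged 97.4 FPKM in WT, below the 182 FPKM of CASP1, a Casparian strip gene of the root (both named after their values were seen). The labels name whole plants, and no reference levels for whole seedlings were used here.

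The sequences of the tandem pair AMT1;3 (gene-AT3G24300) and AMT1;5 (gene-AT3G24290) bear on whether their levels can be told apart, because a short read that matches both genes cannot be assigned to either. Both lie on the minus strand of chromosome 3, the first at chr3:8805519-8807460 and the second at chr3:8801400-8802890 (TAIR10.1, RefSeq annotation), with 2628 bases and no annotated gene between them. Their coding sequences were 87.2% identical, the closest pair in the family. A stretch of 101 bases, which is the read length, is printed here for both genes, 5′ to 3′ on the coding strand. It is the first of the gap-free stretches with the most differing bases in the alignment of their coding sequences. Stretches that overlap it tie with it, and untranslated ends were not part of this alignment. Capitals mark the bases that differ between the lines.
AT3G24300 least alike, chr3:8806581-8806681: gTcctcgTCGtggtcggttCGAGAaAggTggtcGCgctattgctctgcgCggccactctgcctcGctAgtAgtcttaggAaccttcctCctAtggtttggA
AT3G24290 least alike, chr3:8802120-8802220: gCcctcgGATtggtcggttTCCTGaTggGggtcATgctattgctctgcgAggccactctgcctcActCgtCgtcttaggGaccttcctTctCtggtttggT
This stretch held 21 differing bases. Over all 1246 gap-free stretches the differing bases ran from 4 to 21, with a median of 12. No stretch of 101 bases in either transcript occurred in another gene's transcript on the same strand. In each gene 66 stretches came within 5 mismatches of another AMT gene, which is 3.58% of those in AT3G24300 and 4.75% of those in AT3G24290, and 0 came within 2. At full length, then, reads of the pair differ by several bases. How the authors' tools treated reads with several matches is not stated in the sources used here, and exchange of fragments within the pair was not tested.

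The rest of the family was more diverged. Among the other pairs of AMT1 genes, coding identity ran from 66.6% to 75.3%, and AMT2;1 shared 46.8% to 48.5% with the AMT1 genes. Outside the tandem pair, the fewest mismatches of any 101-base stretch to another member were 8 for AMT1;1 and AMT1;2, 14 for AMT1;4 and 38 for AMT2;1. The last, on chromosome 2 at chr2:16039430-16042521 (minus strand), has 5 exons in its longest transcript and 2 annotated transcripts, whereas each AMT1 gene has 1 exon and 1 transcript.

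**Figure D1:**
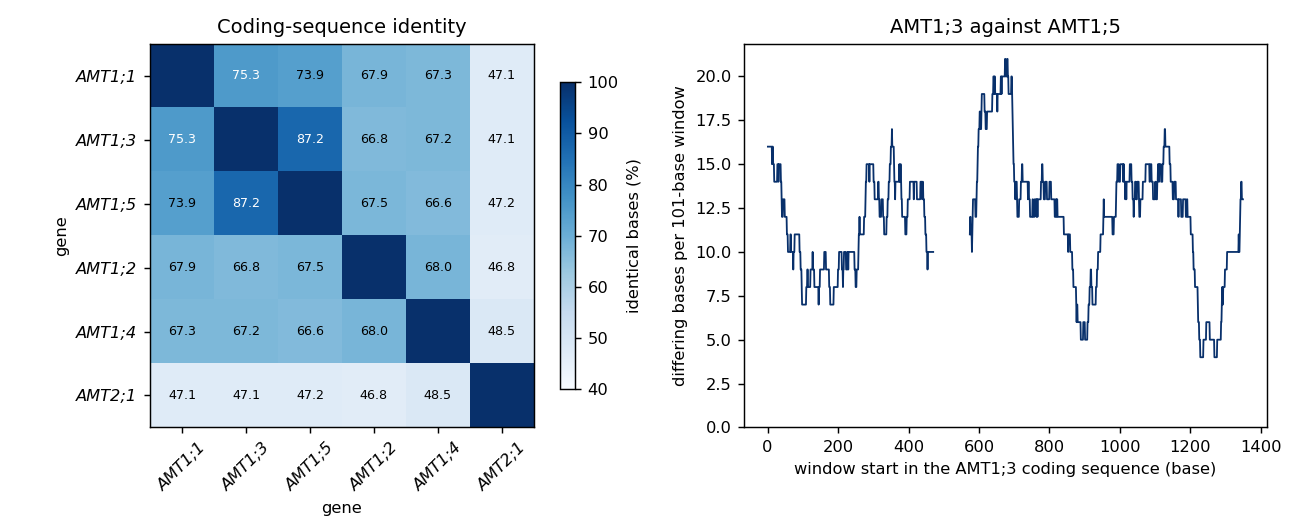
Left, percent of identical bases between aligned coding sequences for each pair of AMT genes. Right, differing bases in each gap-free 101-base window (y) against its start in the coding sequence of AT3G24300 (x). The tandem pair shares 87.2%, and its windows differ by 4 to 21 bases.

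One gene supplied most of the AMT transcripts, and one was close to undetected. The order of mean FPKM was AMT1;1, AMT1;3, AMT2;1, AMT1;2, AMT1;5 and AMT1;4, in WT and in nid1 alike. In neither genotype did the 3 values of any gene in that order overlap those of the next. The closest neighbours were AMT1;3 and AMT2;1, whose means differed 1.44-fold in WT and 1.24-fold in nid1. The leading gene exceeded the next 3.93-fold in WT and 4.01-fold in nid1. Its WT mean lay above that of 98.4% of the 20533 genes tested, while AMT1;5 stood near the middle, above 49.9%.

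**Figure D2:**
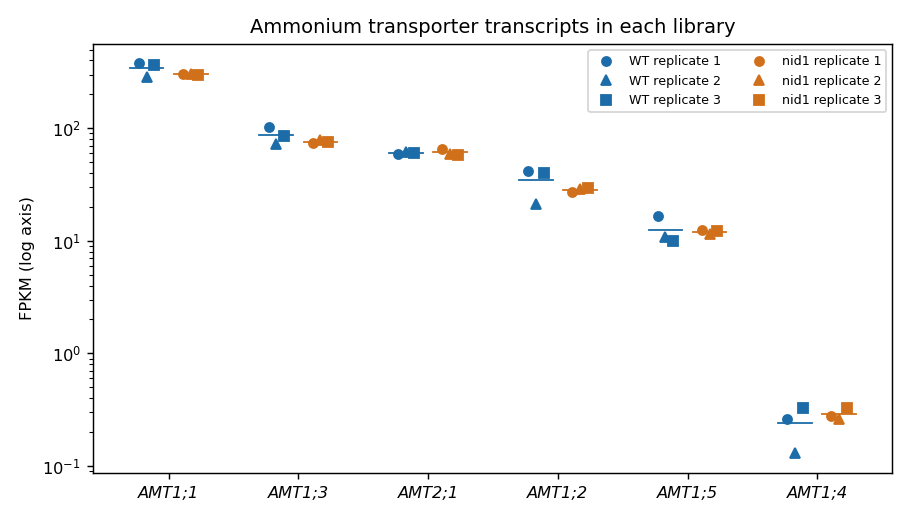
FPKM (y, log axis) of each AMT gene (x) in the 3 WT and 3 nid1 libraries. Each symbol is 1 library and each bar the mean of 3. The genes keep the same order in both genotypes, and the blue triangle of WT replicate 2 is the lowest point of 4 genes, among them the leading gene and the pollen member.

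None of the 5 AMT genes that passed the filter on low values (1 FPKM or more in at least 3 libraries) differed between nid1 and WT beyond the replicate spread. With limma on log2(FPKM + 1), 0 of the 5 were called at an adjusted p under 0.05, where 0.0877% of all tested genes (18 of 20533) were called. An unadjusted p under 0.05 was found in 0 of the 5, beside 6.21% of tested genes. The WT and nid1 values overlapped in all 5, and the background of genes without overlap was 10.3%. The log2 fold change was below 0 in 4 of the 5, with a median of -0.16, while 10257 of the 20533 genes lay below 0 and their median was 0.000218. The pollen member failed the filter and has no test here. In bulk seedling RNA, fewer cells of a type and less RNA per cell cannot be told apart.

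AMT1;1 (gene-AT4G13510, chr4:7858183-7860288, plus strand), a high-affinity carrier of the root surface, reached 376, 285 and 365 FPKM in the WT libraries, in the order of their replicate numbers. The nid1 libraries gave 305, 306 and 299.9 FPKM. WT replicates 1 and 3 were the high libraries, and WT replicate 2 lay below all 3 nid1 libraries, so the genotypes overlapped. The means were 342 ± 49.7 and 303 ± 3.18 FPKM (SD, n = 3 each). The log2 fold change was -0.16 (SE 0.158, 95% interval -0.53 to 0.20, limma adjusted p = 1.00).

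Almost the whole of this transcript is overlapped by a non-coding gene on the other strand, AT4G13505. Of its 1736 exonic bases, 1709 (98.4%) lie within exons of that gene. The kit marks strand, per the labels, but the strand setting of the authors' counting is not stated in the sources used here. AT4G13505 had 0.167, 0.0928 and 0.0450 FPKM in the WT libraries and 0.0400, 0.0998 and 0.0535 FPKM in the nid1 libraries. It was near 0 in every library and overlapped between the genotypes. How fragments were divided between the 2 genes was the authors' estimate.

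AMT1;3, which acts beside the leading gene in root uptake, had values of 103, 73.2 and 85.4 FPKM for WT against 73.5, 77.9 and 75.7 FPKM for nid1. WT replicate 2 was again the lowest of the 6, just under the lowest nid1 library. The means were 87.2 ± 15.0 and 75.7 ± 2.17 FPKM (SD, n = 3 each), and the log2 fold change was -0.19 (SE 0.148, 95% interval -0.53 to 0.15, limma adjusted p = 1.00).

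Its tandem neighbour AMT1;5, known as a root surface carrier of smaller capacity, had values of 16.6, 10.8 and 10.06 FPKM for WT. Those for nid1 were 12.6, 11.4 and 12.3 FPKM. Here WT replicate 1 alone was high, and the nid1 values fell inside the WT range. The means were 12.5 ± 3.61 and 12.1 ± 0.609 FPKM (SD, n = 3 each), with a log2 fold change of -0.01 (SE 0.184, 95% interval -0.44 to 0.42, limma adjusted p = 1.00). The sign turned without WT replicate 1, to 0.20, and without nid1 replicate 2, to 0.03.

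Within the tandem pair the ratio of the higher to the lower gene was 6.19, 6.801 and 8.49 in the WT libraries and 5.84, 6.82 and 6.17 in the nid1 libraries. The highest ratio was that of WT replicate 3, and the genotypes overlapped. RefSeq annotates the lower gene as a coding sequence of 1491 bases without untranslated ends, whereas the higher has 106 bases of 5′ and 339 bases of 3′ untranslated sequence. An FPKM made with that annotation takes no fragments from the ends of AMT1;5 transcripts. Which annotation the authors used is not stated in the sources used here.

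AMT1;2 (gene-AT1G64780, chr1:24060640-24062804, minus strand), known for ammonium entering by way of the endodermis, had the widest relative WT spread of the 5 tested genes. Its values were 42.0, 21.2 and 40.4 FPKM for WT and 26.9, 28.6 and 29.2 FPKM for nid1. The nid1 libraries lay between WT replicate 2, the lowest, and the other 2 WT libraries. The means were 34.5 ± 11.6 and 28.2 ± 1.202 FPKM (SD, n = 3 each), with a log2 fold change of -0.22 (SE 0.244, 95% interval -0.79 to 0.34, limma adjusted p = 1.00).

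AMT2;1 (gene-AT2G38290) was nearly level across the libraries. It stood at 58.7, 61.7 and 60.7 FPKM for WT and at 66.1, 59.4 and 57.5 FPKM for nid1. The highest and the lowest library were both nid1. The means were 60.4 ± 1.51 and 61.0 ± 4.49 FPKM (SD, n = 3 each), and the log2 fold change was 0.01 (SE 0.113, 95% interval -0.25 to 0.27, limma adjusted p = 1.00). It took values on both sides of 0 when single libraries were left out.

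AMT1;4 (gene-AT4G28700, chr4:14161594-14163342, plus strand), the pollen member, stood at 0.263, 0.129 and 0.325 FPKM for WT and at 0.279, 0.263 and 0.327 FPKM for nid1. WT replicate 2 was the lowest library, and the genotypes overlapped. By the approximate worth of a single fragment, these values stand for between 5.71 and 16.5 fragments per library, so a modest genotype difference was not detectable at this depth. The 6 pollen markers together summed to between 0.378 and 0.695 FPKM per library.

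One library set the lowest WT value of several AMT1 genes. WT replicate 2 held the lowest of the 6 values for 3 of the 5 tested members, the leading gene, the endodermal gene and the higher gene of the tandem pair, and was the lowest library for 22.9% of all tested genes. Without that library, these 3 genes no longer overlapped between the genotypes and all 3 were lower in nid1. The background without that library was 32.6% of tested genes in either direction and 12.4% lower in nid1. Omitting a gene's lowest WT value raises its WT mean, and among the 4686 tested genes whose single lowest value was in that library, the share without overlap and lower in nid1 was 22.6%. The 3 genes are singled out by their low value there, so their count is a description. The nid1 means were then lower by 18.1% for AMT1;1, by 31.5% for AMT1;2 and by 19.6% for AMT1;3.

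None of the tested members was called without that library, although these 3 had an unadjusted p under 0.05, as did 13.3% of all tested genes in that fit. The log2 fold change of AMT1;1 became -0.29 (SE 0.0906, limma adjusted p = 0.271). For AMT1;2 it became -0.53 (SE 0.0914, limma adjusted p = 0.101), and for AMT1;3 -0.31 (SE 0.108, limma adjusted p = 0.316). The lower gene of the tandem pair and AMT2;1 still overlapped, at -0.09 and 0.03.

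**Figure D3:**
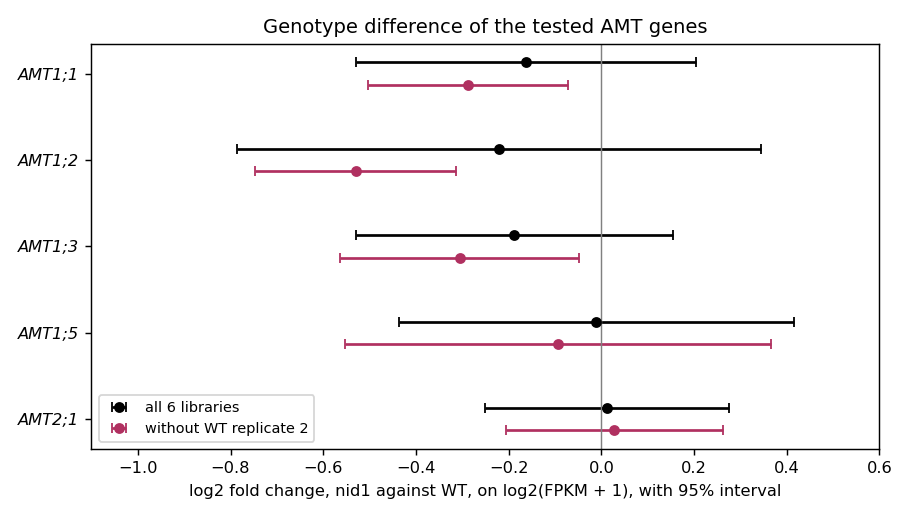
Log2 fold change of nid1 against WT on log2(FPKM + 1) (x) with its 95% interval for the 5 tested AMT genes (y), from all 6 libraries in black and without WT replicate 2 in red. All black intervals include 0, and the endodermal gene moves most without that library, from -0.22 to -0.53.

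The nid1 libraries were closely alike for the 3 tested genes that were lowest in WT replicate 2. Being singled out by a low WT value widens their WT spread, so the comparison is a description. The coefficient of variation (SD over mean) of AMT1;1 was 14.5% in WT and 1.05% in nid1. That of AMT1;2 was 33.5% and 4.26%, and that of AMT1;3 was 17.2% and 2.87%. It was smaller in nid1 for 4 of the 5 tested members, with AMT2;1 as the exception at 2.5% in WT and 7.36% in nid1. A smaller coefficient in nid1 was also found in 74.2% of all tested genes, whose median coefficient was 17.6% in WT and 10% in nid1.

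Relative to their own size, the shares of the larger AMT genes in the AMT pool varied less than those of the smaller ones. In part this follows from the sum itself, which moves with the gene that makes up most of it. Summed over the 6 genes, AMT transcripts reached 597, 452 and 562 FPKM in the WT libraries and 484, 483 and 475 FPKM in the nid1 libraries. WT replicate 2 was the lowest, and the other 2 WT libraries were the highest. AMT1;1 took 62.9% to 65.0% of that sum in the 6 libraries, and AMT1;3 took 15.2% to 17.3%. AMT2;1 took between 9.84%, in WT replicate 1, and 13.7%, in nid1 replicate 1. The share of AMT1;2 was 7.04%, 4.69% and 7.19% for WT and 5.56%, 5.91% and 6.15% for nid1, so both its level and its share were lowest in WT replicate 2. AMT1;5 took 1.79% to 2.79%, with both ends in WT, and the pollen member 0.0286% to 0.0689%.

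**Figure D4:**
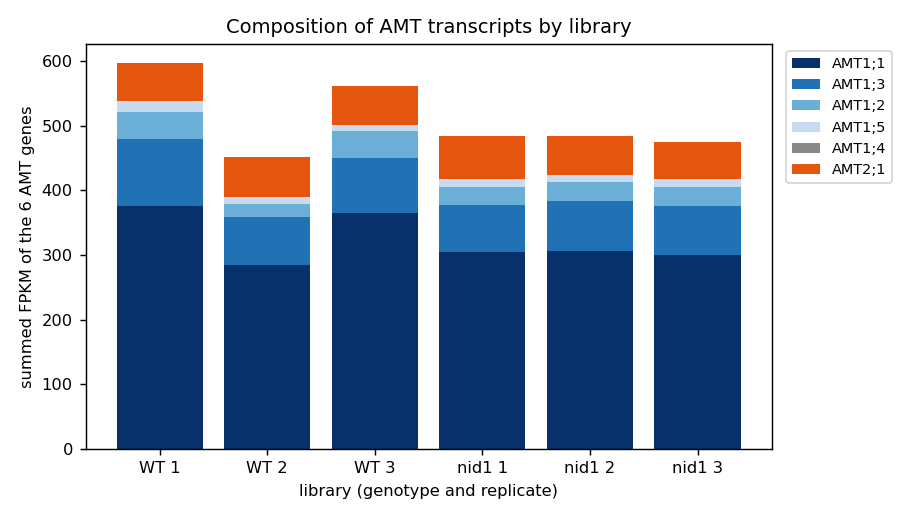
Stacked FPKM of the 6 AMT genes (y) in each library (x), labelled by genotype and replicate. The leading gene, in the darkest blue, makes up 62.9% to 65.0% of every bar, and the bar of WT replicate 2 is the shortest, at 452 FPKM.

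A few genes followed the members closely over the 6 libraries. Likeness was the root mean square difference between centred log2(FPKM + 1) profiles, among genes with a mean of at least 5 FPKM and at least 0.5 times the member's own SD. It is a description over only 6 libraries and was searched over 8110 to 15171 genes per member. Nearest to AMT1;1 were ASN3, an asparagine synthetase gene, at 0.0291 and AT2G28450 at 0.0354, beside an SD of 0.165 for the member itself. AMT1;2 lay nearest to AT2G34300 at 0.0789 and LON1, a mitochondrial protease gene, at 0.0939. For AMT1;3 they were AT5G06560 at 0.0447 and FLA16, a fasciclin-like arabinogalactan protein gene, at 0.0470. AMT1;5 lay nearest to PRPL1 (AT5G05500), a proline-rich protein gene known from root hairs, at 0.0354 and CESA4, a secondary wall cellulose synthase gene, at 0.0662. For AMT2;1 they were PAB8, a poly(A) binding protein gene, at 0.021 and AT5G59770 at 0.0244.

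The promoters of the 3 tested members that were lowest in WT replicate 2 are shown here. Each is the 250 bases before the annotated start of the gene (TAIR10.1, sequence and annotation from RefSeq), printed 5′ to 3′ on the gene's strand. For AMT1;1 the annotated gene is longer than its only transcript, of 1736 bases, and where the transcript starts within it is not given here. Capitals mark 2 motifs on either strand. GAATC is known for NIGT1-type repressors of nitrogen starvation genes. The other, GATAAG, is known for zinc finger regulators of nitrogen and light responses. No match overlaps another in these sequences.
AT4G13510, chr4:7857933-7858182, plus: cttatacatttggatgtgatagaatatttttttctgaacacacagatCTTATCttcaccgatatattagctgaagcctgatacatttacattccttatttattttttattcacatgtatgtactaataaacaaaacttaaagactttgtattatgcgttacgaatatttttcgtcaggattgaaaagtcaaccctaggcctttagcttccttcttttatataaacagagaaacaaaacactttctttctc
AT1G64780, chr1:24062805-24063054, minus: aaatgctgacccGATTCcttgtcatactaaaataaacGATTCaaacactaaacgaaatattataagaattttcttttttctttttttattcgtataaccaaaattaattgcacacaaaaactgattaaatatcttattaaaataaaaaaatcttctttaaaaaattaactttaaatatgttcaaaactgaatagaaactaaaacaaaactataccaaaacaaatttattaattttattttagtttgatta
AT3G24300, chr3:8807461-8807710, minus: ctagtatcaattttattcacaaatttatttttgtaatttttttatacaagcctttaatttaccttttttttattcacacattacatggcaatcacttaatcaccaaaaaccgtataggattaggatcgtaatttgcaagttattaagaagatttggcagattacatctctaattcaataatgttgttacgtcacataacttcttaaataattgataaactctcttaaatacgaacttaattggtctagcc
Matches were counted over a window of 300 bases that adds the first 50 bases of the annotated gene. GAATC was found in 4 of the 6 members, against 45.1% of 27443 protein-coding genes. The most matches were in 2 members not printed here, 5 for AMT1;4 and 3 for AMT1;5. AMT1;2 had 2 matches and AMT1;3 had 1, which lies in the transcribed bases and so outside the printed line. GATAAG was found in AMT1;1 and AMT2;1, against 14.6% of all. CACGTG, the G-box, was found in 0 of the 6, against 7.68% of all. The window of AMT1;5 starts from its start codon, since no untranslated sequence is annotated.

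Regulators of the AMT proteins did not differ beyond the replicate spread. Of 5 tested genes, 0 were called by limma in either direction, beside 0.0877% of all tested genes. An unadjusted p under 0.05 was found in 0 of them, beside 6.21% of all. The median log2 fold change of the 5 was -0.10. Omitting WT replicate 1 moved it to -0.018, and omitting nid1 replicate 3 to -0.024. CIPK23, a kinase that phosphorylates AMT proteins, had means of 32.8 ± 4.81 FPKM for WT and 32.6 ± 0.685 FPKM for nid1 (SD, n = 3 each) and was named after its values were seen. The calcium sensor genes CBL1 and CBL9, whose products recruit it, had log2 fold changes of -0.10 each (limma adjusted p = 1.00).

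Around the transport step, ammonium assimilation had no called gene. Of 15 genes 14 were tested, with 8 below 0 and a median of -0.06. An unadjusted p under 0.05 was found in 1, beside 6.21% of all tested genes, of which 0.0877% were called. That gene was GLU1, the ferredoxin-dependent glutamate synthase of chloroplasts, at 6.66, 2.84 and 5.79 FPKM for WT and 6.92, 8.21 and 10.4 FPKM for nid1. Its nid1 values all lay above WT (log2 fold change 0.68, SE 0.266, limma adjusted p = 0.727). ASN1, an asparagine synthetase gene, had means of 3.33 ± 1.11 and 2.12 ± 0.492 FPKM (SD, n = 3 each).

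The TIP2 aquaporins, which can pass ammonia into the vacuole, had 3 tested genes and a median of 0.14. Of the 3, 0 were called, beside 0.0877% of all tested genes. TIP2;1 stood at 70.3, 65.5 and 39.8 FPKM for WT and at 78.6, 90.9 and 91.7 FPKM for nid1, without overlap (log2 fold change 0.60, SE 0.215, limma adjusted p = 0.654). Without WT replicate 3, the lowest library of this gene, the median of the list turned to -0.15. TIP2;2 had means of 57.5 ± 24.1 and 60.5 ± 10.4 FPKM (SD, n = 3 each).

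Among 7 tested genes of ammonium tolerance, 0 were called, 5 lay below 0 and 3 had an unadjusted p under 0.05, with a median of -0.31. Over all tested genes, 6.21% had such a p, 0.0877% were called and 10257 of 20533 lay below 0. NRT1.1, the dual-affinity nitrate transporter, stood at 121, 133 and 138 FPKM for WT and at 105, 107 and 105 FPKM for nid1, without overlap (log2 fold change -0.31, SE 0.119, limma adjusted p = 0.727). EGY1, a chloroplast protease gene whose mutants are oversensitive to ammonium, had means of 3.72 ± 0.362 and 5.19 ± 0.728 FPKM (SD, n = 3 each). Its values did not overlap either and were higher in nid1 (limma adjusted p = 0.661). The last of them, the anion channel gene SLAH3, had means of 27.5 ± 8.96 and 17.8 ± 1.302 FPKM (SD, n = 3 each) and was named after its values were seen. Its genotypes overlapped, with WT replicate 2, at 17.5 FPKM, inside the nid1 range (limma adjusted p = 0.798). Without WT replicate 2 the median of this list was -0.17.

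Other high-affinity nitrogen uptake genes, 9 in all, also had 0 called, with 6 below 0 and a median of -0.27. The background was 0.0877% of tested genes called and 10257 of 20533 below 0. NRT2.1, the main high-affinity nitrate transporter, stood at 331, 220.4 and 351 FPKM for WT and at 199, 199 and 241 FPKM for nid1. WT replicate 2 was again the lowest WT library, here within the nid1 range (limma adjusted p = 0.815). NRT2.2, its neighbour in the genome, had means of 10.8 ± 0.940 and 8.21 ± 0.358 FPKM without overlap (SD, n = 3 each, limma adjusted p = 0.584). These genes are close relatives, and NRT2.2 is uncertain where reads match both. The median of this list was -0.16 without WT replicate 2.

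**Figure D5:**
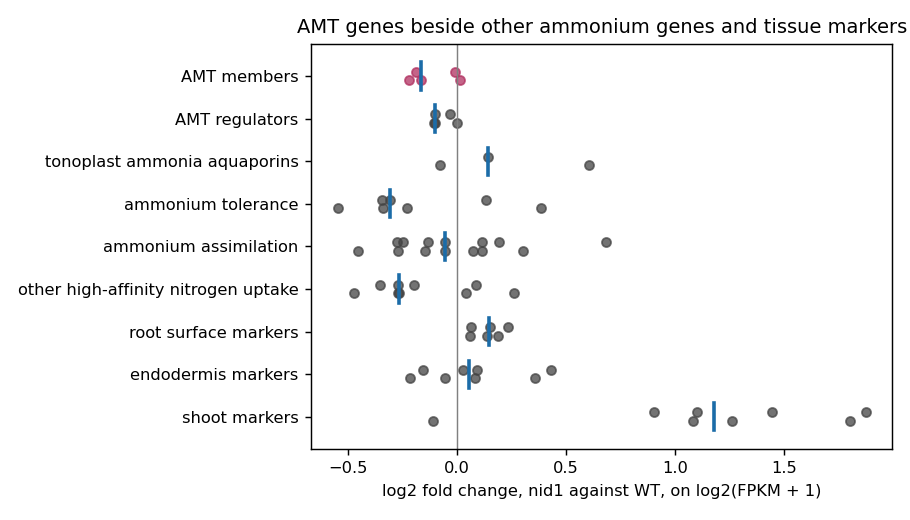
Log2 fold change of nid1 against WT on log2(FPKM + 1) (x) for each tested gene of the AMT family, of the ammonium lists and of the tissue markers (y). Dots are genes and blue bars list medians. AMT genes lie between -0.22 and 0.01, while 7 of 8 shoot markers lie above 0.

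The summed shoot markers did not overlap between the genotypes, whereas the summed root markers did. Separation was not particular to the shoot list. Summed assimilation genes were lower in nid1 without overlap, at 4087 to 4293 FPKM in WT and 3674 to 3820 FPKM in nid1. That sum follows mostly GLN1;1 and GLN1;2, with WT means of 1808 and 1484 FPKM (both named after their values were seen). By mean, 6 of the 15 genes were higher in nid1. Summed ammonium tolerance genes were also lower, at 434 to 561 and 379 to 423 FPKM, with 2 of 7 higher by mean. Other high-affinity uptake genes gave 1723 to 1753 FPKM in WT and 1431 to 1504 FPKM in nid1, with 3 of 9 higher by mean. Gene by gene, 3 of 14 tested assimilation genes, 2 of 7 tolerance genes and 3 of 9 uptake genes were without overlap, in either direction. The background was 10.3% of tested genes. Sums of AMT regulators and of the aquaporins overlapped. Shoot markers summed to between 227 and 262 FPKM in WT and between 390 and 699.8 FPKM in nid1. Of these 8 genes 7 lay above 0 and 7 had an unadjusted p under 0.05, with 0 called by limma and a median log2 fold change of 1.18. Over all tested genes, 6.21% had an unadjusted p under 0.05 and 18 of 20533 were called. Leaving out nid1 replicate 1 gave 3 called genes among the 8, beside 35 of the 20533. Leaving out WT replicate 2 gave 1, beside 25 of the 20533. LHCB4.2 and LHCA2, light-harvesting genes, had WT means of 11.6 ± 3.51 and 33.6 ± 6.03 FPKM and nid1 means of 45.9 ± 15.2 and 94.6 ± 25.6 FPKM (SD, n = 3 each).

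Root surface markers summed to between 239 and 386 FPKM in WT and between 300.1 and 344 FPKM in nid1. All 6 lay above 0 and 0 were called, with a median log2 fold change of 0.15. Over all tested genes, 10276 of 20533 lay above 0 and 0.0877% were called. EXPA18, an expansin gene of root hairs, had means of 45.1 ± 13.4 and 51.5 ± 3.68 FPKM, and RHS19, a root hair gene, 145 ± 44.0 and 161 ± 12.1 FPKM (SD, n = 3 each). Endodermis markers, 8 tested, summed to between 340 and 442 FPKM in WT and between 402 and 410 FPKM in nid1, with 5 above 0, 0 called and a median of 0.06 that became -0.04 without WT replicate 3. CASP4, which helps build the Casparian strip, had means of 19.4 ± 3.35 and 25.0 ± 3.03 FPKM, and its regulator MYB36 15.4 ± 0.338 and 13.1 ± 0.803 FPKM (SD, n = 3 each). The part of the root and shoot shares of the sampled tissue in the AMT values was not tested.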

How the data were processed

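RNA from 6 libraries of seedlings labelled as whole plants, 3 per genotype, was measured, and groups and replicate numbers come from the sample titles. Growth was at 23 °C and 60% humidity in days of 16 h light and 8 h dark, and the stranded libraries were read as pairs of 101 bp, per the labels' protocols. The authors deposited FPKM values, 1 per gene and library, and the identifier column has the name that Cuffdiff writes, per the file headers. The submitters' processing notes list bcl2fastq 2.20, Bowtie, TopHat2 2.0.13 and Cuffdiff 2.2.1 and give no roles, while the series' design text names BWA, and TopHat with Cufflinks. Genome build, annotation, strand setting and library scaling were not stated in the sources used here. TAIR10.1 coordinates are used because 37932 identifiers are locus tags of that annotation and the remaining 218, which name mitochondrial positions, all equal features of it.

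A gene was tested if 3 libraries or more had at least 1 FPKM, which left 20533 genes. The test was limma 3.58.1 (R 4.3.3) on log2(FPKM + 1), with trended eBayes, genotype only, two-sided, and Benjamini-Hochberg adjustment over all tested genes. Fold changes on this scale understate those of low genes. The fit was checked on simulated data. Fragment counts were not used, so depth is known only roughly. The worth of a single fragment was read from the low values of genes with 1 transcript longer than 1500 bp, assuming fragments of 200 bp. Sequences were compared with Python 3.11.15 and Biopython 1.88 on RefSeq TAIR10.1. Coding sequences were compared in place of proteins. A stretch of sequence in the tandem pair is not reported here.

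All 6 members were described whatever their result. Of 9 lists with 67 genes from textbook knowledge, called genes and otherwise up to 2 tested genes with the smallest p were named, and other names are marked. Members and lists were chosen with earlier results of these data known. The alternatives tried were blocking by replicate number, omitting each library in turn, pseudocounts 0.1 and 0.5, a 0.1 FPKM filter, no filter, median-ratio rescaling and no trend. The members' overlap without WT replicate 2, and its background over genes lowest in that library, were added after seeing the data.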

Additional observations from a re-analysis of the deposited data

How the results depend on the processing

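No tested AMT gene was called under any of the 13 alternatives. AMT1;1, AMT1;2 and AMT1;3 kept a negative log2 fold change in all 13, and leaving out single libraries gave -0.29 to -0.09, -0.53 to -0.05 and -0.31 to -0.06. AMT1;5 ranged from -0.14 to 0.20 and changed sign without WT replicate 1 (0.20) and without nid1 replicate 2 (0.03). AMT2;1 ranged from -0.046 to 0.053 and changed sign without WT replicate 1 (-0.0073) and without nid1 replicate 1 (-0.046). Fewer samples entered these fits. AMT1;4, tested only with the lower filter or none, was not called there. The number of genes called over the whole table was 18 and ranged from 8 to 35 when single libraries were left out, namely 9, 25 and 8 when WT replicate 1, 2 or 3 was omitted and 35, 8 and 10 when nid1 replicate 1, 2 or 3 was. It was 70 with the replicate block, and the cause was not tested. The labels tie same-numbered libraries by the number alone, and whether they shared a batch was not tested. Their deviations from the group means correlated at -0.0101, 0.129 and 0.297. WT replicates 1 and 2 correlated better with another number, and WT replicate 3 best with its own. The AMT members that did not overlap numbered 3 of 5 without WT replicate 2, beside 32.6% of tested genes. With all libraries they numbered 0, beside 10.3%. Among genes lowest in WT replicate 2, 22.6% were without overlap and lower in nid1 once it was omitted. With single libraries left out, list medians ran from -0.16 to -0.018 for AMT regulators, from -0.15 to 0.45 for the aquaporins, from -0.36 to -0.17 for ammonium tolerance, from -0.096 to -0.0076 for assimilation, from -0.25 to -0.16 for other uptake genes, from 0.044 to 0.32 for root surface markers, from -0.04 to 0.12 for endodermis markers and from 0.96 to 1.51 for shoot markers. Counting error cannot be given for FPKM, and the replicate spread sets what these values can show.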
